A study of Mus musculus with 4 samples.

Results

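The 10 genes described here are those that brain endothelial cells, the cells that line the capillaries and form the blood-brain barrier, are known by. They were chosen by name (Slc2a1, Mfsd2a, Slco1a4, Abcb1a, Cldn5, Pecam1, Ly6c1, Kdr, Flt1 and Tek) as the matching entries among 31060 genes in the deposited count table, and all 10 were found. The study asked what anesthesia and surgery do to the aging mouse hippocampus. The surgery group had an exploratory laparotomy under sevoflurane, with local ropivacaine at the incision, and its hippocampus was taken at day 3. The control group had neither operation nor anesthesia before the tissue was taken and is labelled day 0. All mice were wild-type C57BL/6, the labels give an age of 12 months, and according to the methods all animals, controls included, were euthanized with sevoflurane, so that last exposure is common to both groups. The operation, its anesthesia and the analgesia cannot be told apart in this design. Total RNA was sequenced from 2 libraries per group. Whether the libraries of a group came from different mice is not given in the sources used here, and a p-value below therefore reflects the scatter of these libraries, which may be technical.

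Endothelium of the brain differs from that of other organs. Its cells are sealed to each other by tight junctions, take up few vesicles from the blood, and carry transporters that bring in glucose and lipids and pump many drugs back out. The receptors for vascular endothelial growth factor (VEGF) and for the angiopoietins govern growth and quiescence of the vessels. In whole hippocampus these cells are a small part of the tissue, and fewer endothelial cells cannot be told apart from less of the RNA per cell.

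Gene counts per library were 19318085 and 18159582 in the surgery group and 19193382 and 18002695 in the control group. Control library 1 stood apart from the other libraries in its level of marker genes of choroid plexus, the tissue that borders the hippocampus and secretes cerebrospinal fluid. Ttr, its most abundant transcript, had 3370 and 4239 CPM (counts scaled to the library total and by the trimmed mean of M values, TMM) in the surgery libraries, against 19.8 and 3226 CPM in the control libraries. For that reason each difference of the 10 genes is given with and without control 1. The libraries also differed in how counts followed the GC content of genes: the Spearman correlation across 10856 genes between GC content and the deviation from the gene's mean was -0.65 and -0.057 in the surgery libraries and 0.26 and 0.59 in the control libraries. Control 2, the only control once control 1 is left out, thus had the highest correlation. The GC trend was not removed in that fit.

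Levels were compared between the genes per length, in the deposited FPKM (counts scaled by gene length and library total). Slc2a1 had the highest level, with a mean over the 4 libraries of 25.5 FPKM (range 21.3 to 29.9), followed by Cldn5 with 19.9 FPKM (17.9 to 21.3) and Ly6c1 with 17.3 FPKM (13.9 to 18.7). Slco1a4 followed with 9.34 FPKM, Mfsd2a with 7.41, Abcb1a with 6.53 and Flt1 with 5.49. The lowest levels were those of Pecam1 with 3.73 FPKM, Tek with 3.11 and Kdr with 2.14 (1.52 to 2.65). Between neighbours in this order the ranges over libraries overlapped for Slc2a1 and Cldn5, Cldn5 and Ly6c1, Mfsd2a and Abcb1a, Abcb1a and Flt1, and Pecam1 and Tek. They did not overlap between Ly6c1 and Slco1a4, Slco1a4 and Mfsd2a, Flt1 and Pecam1, or Tek and Kdr. All 10 genes passed the filter on low counts.

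A read that matches several genes cannot be assigned from its sequence, and 3 of the 10 genes have close copies. Of all stretches of 50 bases in the longest transcript, 36.7% in Ly6c1 also occur in another gene (Ly6c2 or Ly6a), 17.0% in Abcb1a (Abcb1b or Abcb4) and 2.73% in Slco1a4, and none in the other 7. The 2 pairs of coding sequence that follow are shown because reads from them hardly tell the copies apart. The first is 117 bases of exon 3 of Ly6c1 (chr15:75047353-75047469, minus strand, GRCm38) and of exon 3 of Ly6c2 (chr15:75110511-75110627), in which no base differs.
Ly6c1 and Ly6c2: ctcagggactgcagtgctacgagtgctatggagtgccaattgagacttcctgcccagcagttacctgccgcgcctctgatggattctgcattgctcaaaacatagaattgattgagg
The next are 196 bases of exon 13 of Abcb1a (chr5:8702377-8702572, plus strand) and of exon 13 of Abcb1b (chr5:8824697-8824892), with the single differing base in capitals.
Abcb1a: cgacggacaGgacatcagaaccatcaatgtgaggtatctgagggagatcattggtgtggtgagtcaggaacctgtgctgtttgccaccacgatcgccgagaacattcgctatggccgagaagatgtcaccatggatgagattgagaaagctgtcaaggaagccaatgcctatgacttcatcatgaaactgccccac
Abcb1b: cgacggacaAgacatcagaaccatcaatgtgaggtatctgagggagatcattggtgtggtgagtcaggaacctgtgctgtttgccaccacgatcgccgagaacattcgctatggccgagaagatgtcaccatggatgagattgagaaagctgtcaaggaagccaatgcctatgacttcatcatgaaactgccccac

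The copies differed in how many counts they had in the gene table. Ly6c2, which shares most of these stretches with Ly6c1, had 4 and 1 counts in the surgery libraries and 0 and 1 in the control libraries, too few for a test. Ly6a, which shares fewer, had 404 and 244 counts in surgery and 185 and 294 in control, beside 605 and 563 counts of Ly6c1 in surgery and 447 and 554 in control. Abcb1b had 128 and 89 counts in surgery and 94 and 80 in control, beside 761 and 703 counts of Abcb1a in surgery and 579 and 629 in control. Slco1a5, the nearest copy of Slco1a4, had 22 and 30 counts in surgery and 4 and 23 in control. How the counting treated such reads is not given in the sources used here, so the values of Ly6c1 and Abcb1a are less certain than the rest.

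The transporters were compared first. Slc2a1 (GLUT1, the glucose carrier of the barrier, chr4:119108711-119137983 on GRCm38, plus strand) had 87.8 and 91.4 CPM in the surgery libraries, against 75.9 and 102 CPM in the control libraries. Both surgery values lay between the control values. The means were 89.6 ± 2.53 CPM in surgery and 89.0 ± 18.5 CPM in control (SD, n = 2 each), and the log2 fold change was 0.010, with a standard error (SE) of 0.14, a 95% interval of -0.30 to 0.32 and an adjusted p of 0.986 in edgeR. Without control 1 it was -0.19 (SE 0.17). Its control libraries were farther apart than those of any other gene of the 10 in CPM.

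Mfsd2a, which carries lysophospholipids with omega-3 fatty acids and restrains vesicle transport across the endothelium (chr4:122946850-122961188, minus strand), had 16.4 and 16.7 CPM in surgery, against 15.8 and 17.6 CPM in control. Here too the surgery values lay inside the control range. The log2 fold change was -0.015 (SE 0.16, 95% interval -0.37 to 0.34, edgeR adjusted p = 0.981), the only negative one of the 10, and -0.089 without control 1.

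Slco1a4 (chr6:141805440-141856199, minus strand) encodes an organic anion transporter of the capillaries. It had 71.9 and 54.9 CPM in surgery, against 54.9 and 57.9 CPM in control, so that surgery 1 alone stood high. The log2 fold change was 0.17 (SE 0.14, interval -0.14 to 0.48, edgeR adjusted p = 0.710), and 0.13 without control 1. It was -0.034 without surgery 1 and -0.013 once the GC trend of each library was removed. The longest transcript of Slco1a4 has 40.3% GC, the lowest of the 10 genes.

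Abcb1a (P-glycoprotein, the efflux pump that keeps many drugs out of the brain, chr5:8660077-8748575, plus strand) had 39.5 and 39.1 CPM in surgery, against 30.7 and 33.9 CPM in control. Both surgery libraries were above both controls. The means were 39.3 ± 0.277 CPM in surgery and 32.3 ± 2.31 CPM in control (SD, n = 2 each), and the log2 fold change was 0.28 (SE 0.13, 95% interval -0.0015 to 0.57, edgeR adjusted p = 0.502). Without control 1 it was 0.21 (SE 0.18, edgeR adjusted p = 0.694).

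**Figure D1:**
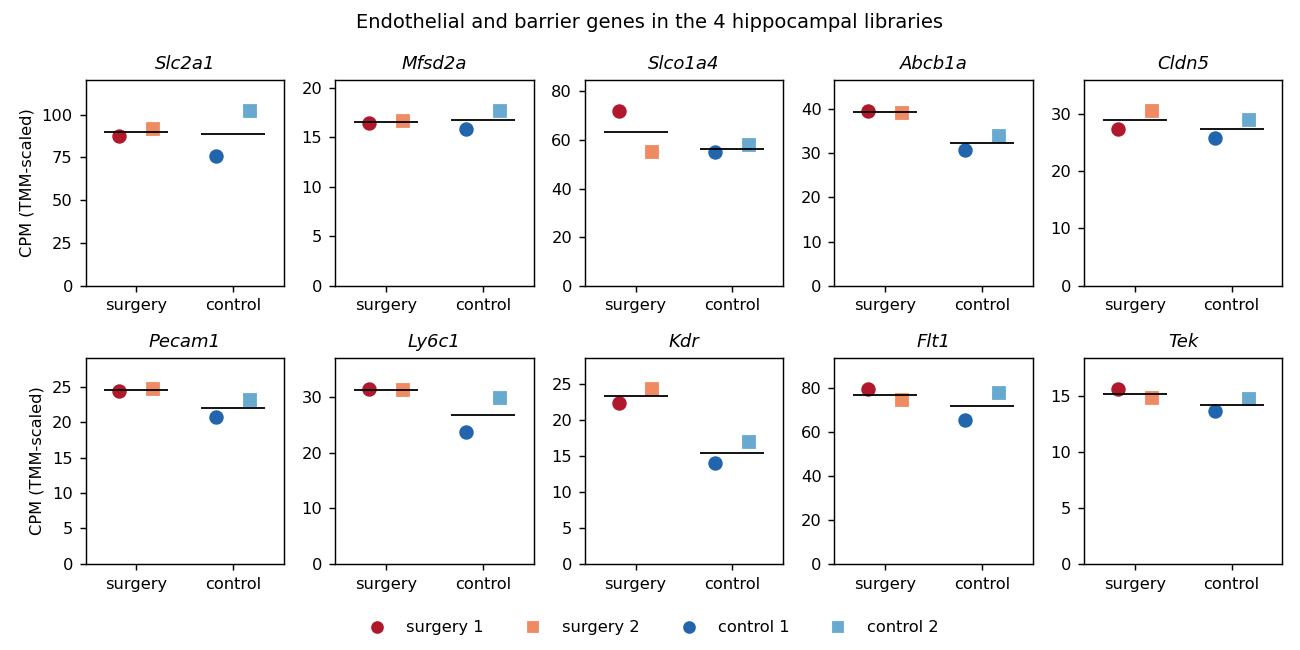
CPM (TMM-scaled, y axis, each panel from 0) of the 10 genes in the 4 libraries, surgery left and control right, with a bar at each group's mean. Kdr is at 22.3 and 24.2 CPM in surgery and 13.9 and 16.9 CPM in control, while for Slc2a1 both surgery points lie between the control points.

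Junction and surface genes came next. Cldn5, the main claudin of the tight junctions (chr16:18776847-18778262, plus strand), had 27.3 and 30.4 CPM in surgery, against 25.7 and 28.9 CPM in control, and the groups overlapped. Its log2 fold change was 0.081 (SE 0.14, 95% interval -0.23 to 0.39, edgeR adjusted p = 0.879) and 0.00083 without control 1. Its longest transcript has 60.5% GC, the highest of the 10. With the GC trend removed it was 0.34 (edgeR adjusted p = 0.675).

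Pecam1 (chr11:106654217-106750628, minus strand), an adhesion molecule of the cell borders that is found on all endothelium, had 24.4 and 24.6 CPM in surgery, against 20.8 and 23.1 CPM in control. Ly6c1 (chr15:75044018-75048830, minus strand), a surface protein of brain capillaries, had 31.4 and 31.3 CPM in surgery, against 23.7 and 29.9 CPM in control. For both genes the surgery libraries stood above both controls, by a narrow margin over control 2. The log2 fold change of Pecam1 was 0.16 (SE 0.14, edgeR adjusted p = 0.732) and that of Ly6c1 0.23 (SE 0.15, edgeR adjusted p = 0.624). Without control 1 these were 0.089 and 0.071.

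Among the receptors, Kdr had the widest gap between surgery and control. Kdr (chr5:75932827-75978458, minus strand) encodes the main signalling receptor for VEGF on endothelium. It had 429 and 435 counts in the surgery libraries, against 263 and 313 counts in the control libraries, or 22.3 and 24.2 CPM against 13.9 and 16.9 CPM. Both surgery libraries were above both controls, and the gap between the groups was wider than that within either. The means were 23.2 ± 1.37 CPM in surgery and 15.4 ± 2.09 CPM in control (SD, n = 2 each). The log2 fold change was 0.59 (SE 0.16, 95% interval 0.23 to 0.95, edgeR adjusted p = 0.369). Kdr ranked 190 among 17236 genes by p and did not pass after adjustment over all of them.

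Without control 1 the log2 fold change of Kdr was 0.46 (SE 0.19, edgeR adjusted p = 0.396). With all 4 libraries Kdr passed the adjusted threshold in no setting. With 1 library left out, whether Kdr passed turned on which library that was. The log2 fold change of Kdr was 0.74 without control 2, where control 1 is the only control. Over all settings it lay between 0.39 and 0.74. Removing the GC trend left it at 0.59, and the GC content of its longest transcript, 49.4%, is at the median of all genes tested.

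Flt1 (chr5:147561604-147726011, minus strand) binds VEGF more tightly than Kdr does but signals weakly, and acts largely as a decoy. Flt1 had 79.2 and 74.3 CPM in surgery, against 65.4 and 77.7 CPM in control, and the groups overlapped. Its log2 fold change was 0.10 (SE 0.12, 95% interval -0.17 to 0.37, edgeR adjusted p = 0.810) and -0.016 without control 1. Tek (TIE2, the receptor for the angiopoietins, chr4:94739289-94874976, plus strand) had 15.6 and 14.8 CPM in surgery, against 13.7 and 14.7 CPM in control, so that surgery 2 and control 2 were nearly equal. Its log2 fold change was 0.099 (SE 0.16, 95% interval -0.26 to 0.46, edgeR adjusted p = 0.869) and 0.051 without control 1.

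**Figure D2:**
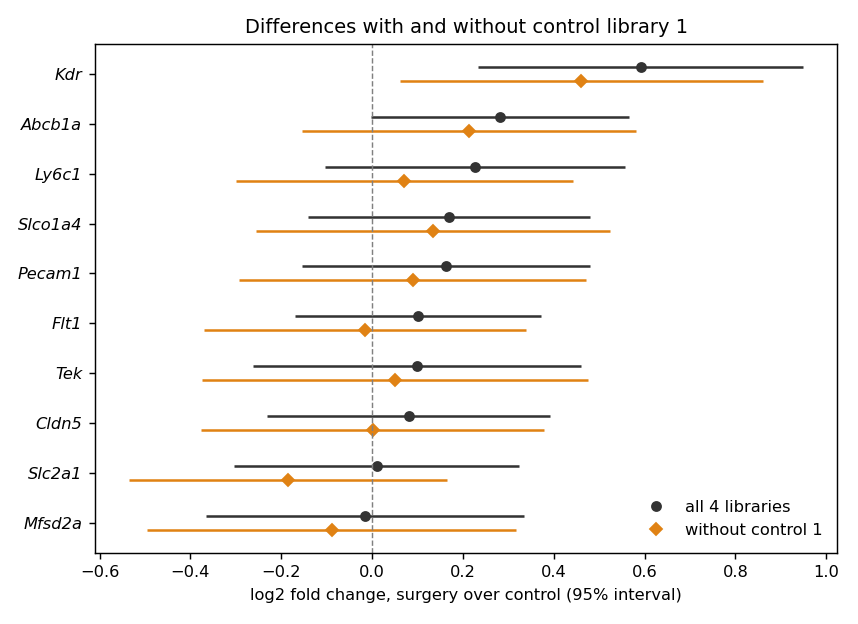
Log2 fold change of each gene, surgery over control (x axis, points with 95% intervals), from all 4 libraries (circles) and without control 1 (diamonds). Kdr, at 0.59 and 0.46, is the gene whose interval lies above 0 with and without control 1.

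The promoters of the VEGF receptors are shown because Kdr differed most among the 10 genes and Flt1 shares its ligand. They run from 250 bases before to 50 after the start in RefSeq (GRCm38.p6). Capitals mark GGAA on either strand, the core that ETS factors, which drive many endothelial genes, bind. The Kdr promoter (chr5:75978406-75978705, minus strand) holds 5 such matches and that of Flt1 (chr5:147725962-147726261, minus strand) 4.
Kdr: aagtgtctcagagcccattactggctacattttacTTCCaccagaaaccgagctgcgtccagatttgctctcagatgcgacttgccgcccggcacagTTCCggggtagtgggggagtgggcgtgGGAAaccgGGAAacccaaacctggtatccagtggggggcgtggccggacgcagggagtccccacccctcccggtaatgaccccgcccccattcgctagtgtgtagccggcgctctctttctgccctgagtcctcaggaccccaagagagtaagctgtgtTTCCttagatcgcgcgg
Flt1: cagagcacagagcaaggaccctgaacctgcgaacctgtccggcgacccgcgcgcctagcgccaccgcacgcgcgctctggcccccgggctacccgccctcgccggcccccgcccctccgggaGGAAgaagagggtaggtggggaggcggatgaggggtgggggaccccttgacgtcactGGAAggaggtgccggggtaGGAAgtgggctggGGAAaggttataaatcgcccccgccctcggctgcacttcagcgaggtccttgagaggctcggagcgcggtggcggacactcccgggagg

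The motif is short and common. GGAA occurs in 95.98% of 32851 mouse promoters of this length, with a median of 3.0 matches, and 28.59% hold 5 or more. Of the 10 genes 9 had a promoter in the table (Pecam1 had none), Ly6c1 had 2, and the median over these 10 promoters was 4.0 matches. The promoters of Cldn5 and Slc2a1 held none. A match is only a run of letters in this window.

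Most of the 10 genes had small positive differences. Of the 10, 9 had a positive log2 fold change, against 50.1% of all 17236 genes tested, and their median was 0.13, against 0.00053 for all genes. None passed the adjusted threshold of 0.05 in edgeR, and neither did any other gene (0% of those tested). In DESeq2, where 1.03% of genes with an adjusted p passed, none of the 10 did, and Kdr, Mfsd2a and Tek were given no adjusted p. At an unadjusted p under 0.05 in edgeR, 1 of the 10 (Kdr) was higher and 0 were lower, against 4.33% and 5.63% of all genes.

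Both surgery libraries stood above both controls for 5 of the 10 (Abcb1a, Pecam1, Ly6c1, Kdr and Tek), against 20.3% of all genes, and below both for 0, against 22.3%. Summed over the 10 genes, the level was 416 and 402 CPM in surgery, against 340 and 403 CPM in control. The sum in control 2 was thus close to that of surgery 2, and control 1 alone was low. Control 1 was the lowest library for 9 of the 10 (all but Slco1a4), against 21% of all genes. Without control 1 the median log2 fold change was 0.061, 7 of the 10 were positive (51.1% of all genes), 0 passed the adjusted threshold in edgeR (0.283% of all genes did) and only Kdr had an unadjusted p under 0.05, in the higher direction (1 of 10 higher, 0 lower, against 4.25% and 6.35% of all genes).

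Markers of tissue that borders the hippocampus moved with control 1. The summed level of 15 choroid plexus markers was 5450 and 6445 CPM in surgery, against 218 and 5081 CPM in control, and all 15 were lowest in control 1. For 12 markers of meningeal and perivascular fibroblasts it was 266 and 365 CPM in surgery and 152 and 313 CPM in control, with 10 of 12 lowest in control 1. These tissues hold vessels of their own, and their part in the low values of the 10 genes in control 1 was not tested. Genes of larger or leaky vessels did not all follow them. Vwf, which marks larger vessels, had 33.6 and 44.8 CPM in surgery, against 17.0 and 40.9 CPM in control, and 7 of 9 genes of caveolae and vesicles were lowest in control 1. Plvap, which forms the diaphragms of leaky vessels, was an exception in that group, with 5.97 and 10.6 CPM in surgery and 9.06 and 11.5 CPM in control. Vwf and Plvap were named after their values were seen.

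Markers of cells that sit on the same vessels were also compared. The 15 listed markers of pericytes and smooth muscle summed to 355 and 388 CPM in surgery and 326 and 371 CPM in control, with a median log2 fold change of 0.055, and -0.089 without control 1. Of the 14 tested, 8 were positive and 6 negative. Both surgery libraries stood above both controls for 3 and below both for 1, against 20.3% and 22.3% of all genes. Pdgfrb, which marks pericytes, had 21.3 and 26.1 CPM in surgery and 24.1 and 26.1 CPM in control (-0.082, and -0.14 without control 1). Rgs5, the next of the list, had 134.3 and 121.5 CPM in surgery and 121.4 and 109.0 CPM in control (0.15, and 0.23 without control 1). The contractile genes of smooth muscle were low in control 1, as Acta2 had 25.6 and 35.6 CPM in surgery, against 13.5 and 28.1 CPM in control, and Myh11 had 18.3 and 26.8 CPM in surgery, against 10.3 and 23.2 CPM in control. Their log2 fold changes were 0.56 and 0.43, and 0.12 and -0.042 without control 1. Of 11 markers of astrocyte endfeet, which wrap the capillaries, 8 were positive and 3 negative (median log2 fold change 0.12, and 0.19 without control 1), and 1 of them was lowest in control 1. Aqp4, the water channel of the endfeet, had 224 and 162 CPM in surgery, against 154 and 149 CPM in control (0.35, and 0.38 without control 1). The part of pericytes, smooth muscle and endfeet in the values of the 10 genes was not tested. Red cell genes, a sign of blood left in the vessels, summed to 50.1 and 62.9 CPM in surgery and 49.2 and 110 CPM in control, so that control 2 stood high.

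A wider list of 120 endothelial and barrier genes in 7 groups by role gave 117 tested genes, of which 73 had a positive and 44 a negative log2 fold change (median 0.098, and 0.015 without control 1). The list was drawn up by role, and bulk values cannot assign its genes to vessels. None passed the adjusted threshold in edgeR. At an unadjusted p under 0.05, 7 were higher (Slc39a10, Cldn12, Ptprb, Adgrl4, Eng, Angpt1 and Emcn) and 5 lower (Pacsin3, Rasip1, Egfl7, Jag2 and Slc3a2), against 4.33% and 5.63% of all genes. These counts turned on the control libraries, being 2 higher and 9 lower without control 1, and 27 higher and 0 lower without control 2. Angpt1, Adgrl4, Egfl7 and Jag2 are named only because their p was seen to be low. With the GC trend removed 3 of these 12 kept an unadjusted p under 0.05 in the same direction. The longest transcripts of the 5 lower genes have 53.4% to 63.6% GC and those of the 7 higher genes 39.3% to 57.4%.

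Other genes of the junctions were centred near 0. Of 12, 7 were positive and 5 negative (median 0.047, and -0.074 without control 1). Cldn12, a second claudin of the brain, had 38.7 and 33.0 CPM in surgery, against 29.8 and 28.2 CPM in control, a log2 fold change of 0.31 (SE 0.14), and 0.35 without control 1. Jam2, a junctional adhesion molecule, had 49.0 and 44.8 CPM in surgery, against 40.2 and 42.1 CPM in control (log2 fold change 0.19, and 0.16 without control 1).

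Of 17 other transporters 11 were positive and 6 negative (median 0.17, and 0.033 without control 1). Slc39a10, a zinc importer, had 179 and 177 CPM in surgery, against 159 and 134 CPM in control (log2 fold change 0.28, SE 0.12, edgeR adjusted p = 0.483), and 0.41 without control 1. Slc3a2, the heavy chain of the large amino acid transporter, had 82.6 and 104 CPM in surgery, against 110 and 120 CPM in control (-0.30, SE 0.13, edgeR adjusted p = 0.487), and -0.37 without control 1. These genes are also used by neurons and glia, and bulk values cannot assign them to vessels.

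Among 18 genes of VEGF, angiopoietin and Notch signalling, 9 were positive and 9 negative (median -0.0090, and -0.049 without control 1). Ptprb (VE-PTP), the phosphatase that acts on Tek and on the VEGF receptor, had 60.3 and 67.3 CPM in surgery, against 45.9 and 51.5 CPM in control. Its log2 fold change was 0.39 (SE 0.12, edgeR adjusted p = 0.406), and 0.31 without control 1. Eng (endoglin), a co-receptor for TGF-beta, had 35.6 and 35.8 CPM in surgery, against 24.1 and 29.4 CPM in control (log2 fold change 0.42, SE 0.14, edgeR adjusted p = 0.417), and 0.28 without control 1. Like Kdr, both had every surgery value above every control value, but they are named for having the smallest p of the group. Of the 18 genes, 4 had both surgery libraries above both controls and 4 had both below. Among all genes these shares were 20.3% and 22.3%. Of the ligands, Vegfa had 55.8 and 64.0 CPM in surgery, against 51.4 and 58.4 CPM in control (0.13, and 0.039 without control 1), and Angpt1, which activates Tek, had 9.96 and 8.01 CPM in surgery, against 4.50 and 7.07 CPM in control (0.64, and 0.35 without control 1).

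Wnt signals from the brain tissue induce the barrier in endothelium, and of 19 genes of that programme 9 were positive and 10 negative (median -0.023, and -0.041 without control 1). Adgra2 (GPR124), the co-activator of Wnt7 signals, had 17.1 and 20.5 CPM in surgery, against 20.7 and 27.8 CPM in control (-0.36, SE 0.18, edgeR adjusted p = 0.527), and -0.56 without control 1 (edgeR adjusted p = 0.253). Fzd6 had 16.0 and 13.4 CPM in surgery, against 10.5 and 12.4 CPM in control (0.36, edgeR adjusted p = 0.532), and 0.25 without control 1. None of the 19 had an unadjusted p under 0.05 in edgeR with all 4 libraries, and without control 1 these were 2 (Adgra2 and, named after its values were seen, Lef1), both lower.

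Genes of caveolae and vesicles, which brain endothelium keeps low, gave 7 positive and 2 negative of 9 (median 0.16, and 0.042 without control 1). Cavin2 had 14.0 and 15.7 CPM in surgery, against 9.54 and 12.9 CPM in control (0.41, edgeR adjusted p = 0.517), and 0.21 without control 1. Pacsin3, which bends membranes at caveolae, had 9.60 and 11.2 CPM in surgery, against 12.8 and 22.0 CPM in control. Its log2 fold change was -0.74 (SE 0.24, edgeR adjusted p = 0.407), and without control 1 it was -1.08 and passed the adjusted threshold (edgeR adjusted p = 0.0265), against control 2 alone.

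Adhesion molecules that catch leukocytes were measured with the signals that induce them. The selectins were at the floor, Sele with 1 and 0 counts in surgery and 0 and 0 in control, and Selp with 2 and 2 counts in surgery and 0 and 0 in control. Vcam1 had 35.7 and 37.9 CPM in surgery, against 24.1 and 33.9 CPM in control (0.34, edgeR adjusted p = 0.519), and 0.12 without control 1. Icam1 and Icam2, named after their values were seen, had the opposite sign at low levels. Icam1 had 1.97 and 2.61 CPM in surgery and 2.60 and 2.86 CPM in control (-0.25, and -0.32 without control 1). Icam2 had 2.13 and 2.34 CPM in surgery and 2.12 and 3.13 CPM in control (-0.23, and -0.49 without control 1). Il1r1, the receptor for interleukin-1, had 18.8 and 23.1 CPM in surgery, against 15.4 and 19.1 CPM in control (0.28, and 0.13 without control 1). Of 13 tested, 8 were positive and 5 negative (median 0.094, and -0.060 without control 1). The 11 listed leukocyte markers of blood were low in all libraries, with a sum of 9.24 and 9.29 CPM in surgery and 5.56 and 6.80 CPM in control. Only 4 of them had enough counts for a test, and all 4 were positive (3 of 4 without control 1). Among these, Ccr2, named after its values were seen, had few counts, 12 and 14 in surgery and 2 and 3 in control. Its log2 fold change was 2.33 (SE 0.74, edgeR adjusted p = 0.406), and 2.07 without control 1. The sum mostly followed Ptprc, with 5.91 and 5.62 CPM in surgery and 4.08 and 4.32 CPM in control. Which cells its RNA came from was not tested, so the sum says little about leukocytes of the blood.

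The general identity genes of endothelium gave 22 positive and 7 negative of 29 tested (median 0.18, and 0.089 without control 1). Emcn (endomucin) had 5.81 and 6.67 CPM in surgery, against 3.23 and 4.21 CPM in control (0.75, SE 0.25, edgeR adjusted p = 0.414), and 0.57 without control 1. Rasip1, a regulator of vessel lumens, had 4.62 and 5.73 CPM in surgery, against 7.05 and 9.60 CPM in control (-0.69, SE 0.24, edgeR adjusted p = 0.426), and -0.89 without control 1. The 2 transcripts lie far apart in GC content, at 40.7% for Emcn and 63.6% for Rasip1.

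**Figure D3:**
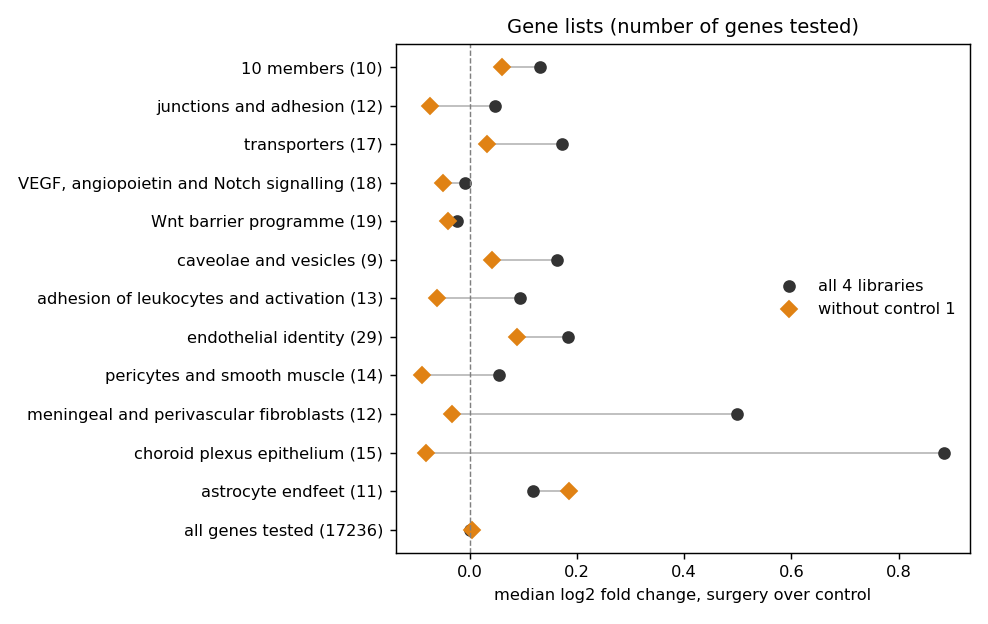
Median log2 fold change, surgery over control (x axis), of the 10 genes (labelled members), the 7 groups of the wider list, 4 marker lists and all genes tested, from all 4 libraries (circles) and without control 1 (diamonds). Choroid plexus markers are at 0.88 and -0.081, while the 10 genes are at 0.13 and 0.061.

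Transcripts of the 10 genes were taken from a separate deposited table of estimated counts, made by a tool that the sources used here do not state. It holds 42 transcripts of the 10 genes, of which 29 passed the filter, and 20 carry at least 5% of the counts of their gene. None of the 29 passed the adjusted threshold among 65665 transcripts in edgeR (0% of all did) or in DESeq2 (3.95% of all did), and none had an unadjusted p under 0.05 in edgeR (6% of all did). Summed over isoforms, the transcript counts were 3.88 times the gene counts over the whole table.

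Flt1 has isoforms that differ in function. Flt1-202 (30 exons) encodes the full receptor, and Flt1-203 (13 exons) reads on past the end of exon 13 to an early stop and encodes the soluble form, which is secreted and binds VEGF without signalling. The end of the coding sequence that both share (chr5:147639225-147639284, minus strand) is given in lower case, with the next 95 bases of each in capitals. In Flt1-202 these are the start of exon 14 (chr5:147634429-147634523) and in Flt1-203 they run on beside the shared part (chr5:147639130-147639224) to the stop codon.
Flt1-202: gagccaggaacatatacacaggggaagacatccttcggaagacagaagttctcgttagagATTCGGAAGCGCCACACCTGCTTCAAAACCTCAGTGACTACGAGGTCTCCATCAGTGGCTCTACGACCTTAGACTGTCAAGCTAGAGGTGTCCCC
Flt1-203: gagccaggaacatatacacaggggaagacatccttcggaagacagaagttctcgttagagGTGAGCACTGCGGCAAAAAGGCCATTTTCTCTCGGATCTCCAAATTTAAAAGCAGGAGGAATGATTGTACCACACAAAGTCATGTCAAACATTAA

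The coding sequences share their first 1972 bases, of 4002 in Flt1-202 and 2067 in Flt1-203. Flt1-202 had 3874 and 3717 estimated counts in surgery, against 2889 and 3369 in control, and Flt1-203 had 2148 and 1534 in surgery, against 1926 and 2263 in control. As a share of all Flt1 counts, Flt1-202 was 64.2% and 70.7% in surgery, against 59.7% and 59.5% in control. The full form thus took a larger share in both surgery libraries, with no overlap, and the gap between the surgery libraries was wider than the distance from the lower of them to the controls. How often isoform shares of other genes separate in this way was not determined. By gene level, both surgery libraries were above both controls for 20.3% of genes and below both for 22.3%. An exact permutation test of 2 against 2 libraries cannot give a two-sided p below 0.333, so the share was not tested. The log2 fold change was 0.30 for Flt1-202 (SE 0.21, 95% interval -0.32 to 0.92) and -0.17 for Flt1-203 (SE 0.30, 95% interval -1.04 to 0.71).

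Kdr was carried almost wholly by Kdr-201, with 1669 and 1661 estimated counts in surgery, against 1014 and 1190 in control. Its log2 fold change was 0.62 (SE 0.28, edgeR adjusted p = 0.955), close to that of the gene. Cldn5 and Mfsd2a also rested on a single transcript each.

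For other genes the split between isoforms changed from library to library within a group. Tek-201 had 1020 and 0 estimated counts in surgery and 901 and 936 in control, while Tek-203 had 148 and 1020 in surgery and 69 and 110 in control. Slco1a4-203 had 1379 and 0 in surgery and 0 and 968 in control, and Slco1a4-201 had 90 and 641 in surgery and 771 and 141 in control. The level of Tek over its isoforms was nevertheless even, at 1171 and 1023 in surgery and 970 and 1046 in control. Because such isoforms had 0 counts in 1 library and many in the other library of the same group, their values were not compared between groups.

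**Figure D4:**
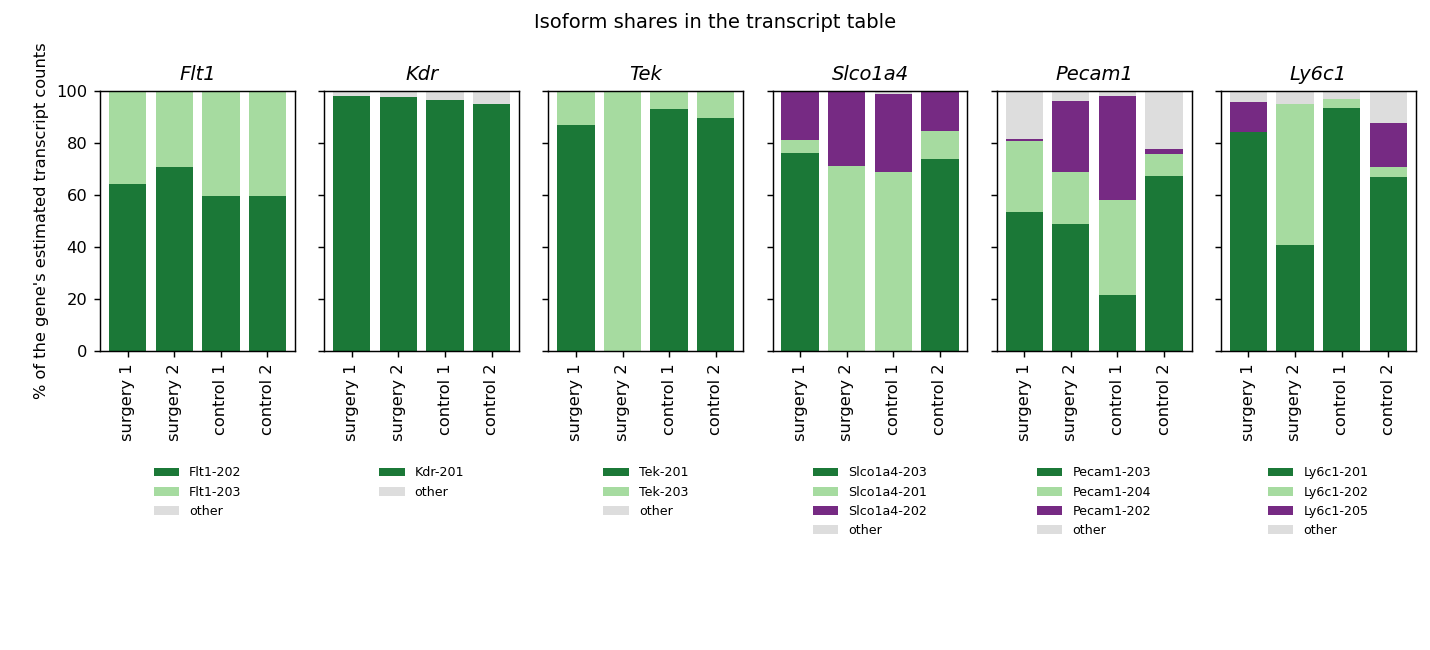
Share of each gene's estimated transcript counts (y axis, percent) taken by its isoforms in the 4 libraries, surgery left of control, for 6 of the genes. Flt1-202 holds 64.2% and 70.7% in surgery and 59.7% and 59.5% in control, whereas the isoforms of Tek, Slco1a4, Pecam1 and Ly6c1 trade places between libraries of 1 group.

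The transcript table held fewer counts, relative to the gene counts, for 4 of the 10 genes. For the other 6 the summed transcripts were between 3.61 and 4.37 times the gene count in every library. For Abcb1a they were 1.73 and 1.82 times in surgery and 0.470 and 0.227 times in control. Abcb1a-201 accordingly had 1044 and 1152 estimated counts in surgery, against 226 and 35 in control, a log2 fold change of 3.11 (SE 1.09, edgeR adjusted p = 0.847), where the gene counts gave 0.28. For Slco1a4 the ratio was 1.31 and 0.910 in surgery and 1.08 and 1.22 in control, for Pecam1 1.53 and 2.87 in surgery and 3.46 and 1.81 in control, and for Ly6c1 3.41 and 3.02 in surgery and 3.84 and 2.62 in control. The table also holds assembled models without a gene symbol, and whether they took the remaining reads was not tested. Transcript values of these 4 genes were not read as levels.

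**Figure D5:**
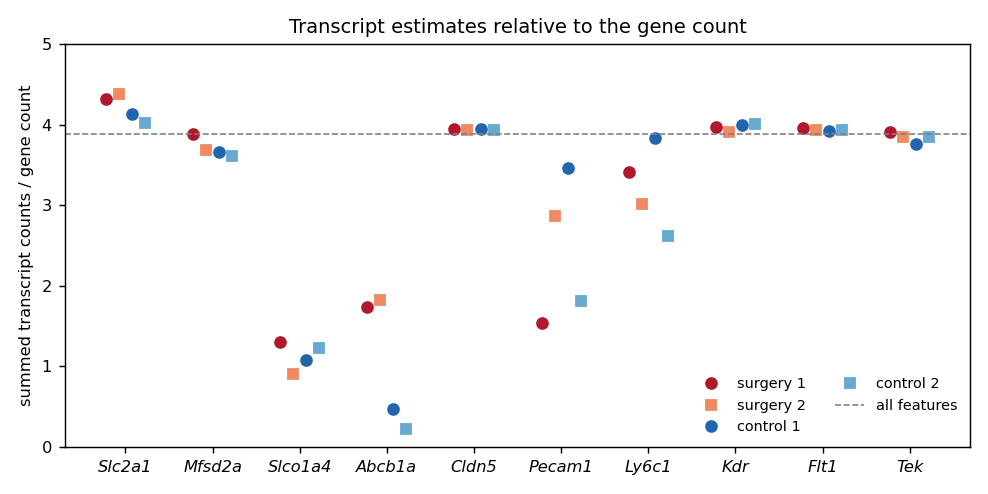
Summed transcript estimates divided by the gene count (y axis) for the 10 genes in the 4 libraries, with the ratio over all features, 3.88, as a dashed line. Abcb1a lies at 1.73 and 1.82 in surgery and at 0.470 and 0.227 in control.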

How the data were processed

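Hippocampal RNA of 2 surgery and 2 control libraries was used, grouped by the sample labels. The authors aligned reads to mm10 with HISAT2 (default parameters), and HTSeq, which they list as version 5.4.2, gave counts for each gene. They deposited raw gene counts, FPKM per gene (the counts over a gene length and the column total), estimated counts per transcript and FPKM per transcript. The annotation release and the tool for transcripts are not given in the sources used here. Transcript FPKM values were not analysed here.

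A library held 18002695 to 19318085 gene counts and 69394548 to 75437127 estimated transcript counts. The 10 genes had 263 to 1891 counts per library. Counting error weighs more for sparse genes such as Sele, Selp, Ly6c2, Slco1a5 and Emcn. Replicates differed by far more than sampling noise (chi-square over degrees of freedom 13.3 in surgery and 16.1 in control).

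EdgeR 4.0.16 in R 4.3.3 served for tests of counts (two-sided quasi-likelihood F test after TMM normalization and filterByExpr, minimum count 10, total 15), surgery against control with no covariate. Estimated counts were rounded first. P-values were adjusted by Benjamini and Hochberg over all features tested, with a threshold of 0.05. CPM are TMM-scaled, and SE and 95% intervals are of the log2 fold change. Without control 1 the lone control is assumed to vary like the surgery group.

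Alternatives were RLE factors, no filter, at least 10 counts in each library, DESeq2 1.42.0, limma-voom (limma 3.58.1), limma-trend on log2(FPKM + 1), on log2(FPKM + 0.1) and on genes with a mean FPKM of at least 1, a block for the replicate number, leaving out each library, scaling by the endothelial identity genes, and an offset for the GC trend of each library (loess, span 0.3, genes above a log2 CPM of 3). Scripts were tested on simulated data. Positions and GC content are from GENCODE vM21 on GRCm38, where 30989 of 31060 genes matched by Ensembl ID, and promoters from RefSeq on GRCm38.p6.

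The 10 genes and all gene lists were chosen with earlier results of these data known. Named besides the 10 genes were the 2 genes of smallest p in each group of the wider list, the summed level of marker lists with leading markers, close copies, and transcripts with at least 5% of their gene. Others were chosen after their values were seen (Acta2, Myh11 and those said to be so above) or stand for a role (Vegfa, Sele, Selp). Among marker lists not described above, microglia and border macrophages summed to 362 and 293 CPM in surgery and 317 and 301 CPM in control, neurons to 9284 and 9864 CPM in surgery and 10531 and 8924 CPM in control, and oligodendrocytes to 4948 and 3500 CPM in surgery and 4899 and 5109 CPM in control.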

Additional observations from a re-analysis of the deposited data

How the results depend on the processing

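Over 160 values of the 10 genes under all alternatives, 150 kept the direction found with all 4 libraries. The median log2 fold change of the 10 genes was positive in every setting run. It lay between 0.061 (without control 1) and 0.24 (without control 2) when 1 library was left out, and between 0.094 (limma-trend on log2(FPKM + 1)) and 0.15 in the other settings. The number of the 10 past the adjusted threshold was 0 in every setting with all 4 libraries. In the wider list it was also 0 there, except with no count filter. In that setting it was 1 (Pacsin3), where 395 of all 29672 genes tested passed. A fit with 1 library left out rests on a single library in 1 group, and these numbers turned on which library that was. Without control 2, Kdr was at 0.74, against control 1 alone. For transcripts of the 10 genes the number was 0 in every setting run on them with all 4 libraries. The GC offset, limma-trend and the scaling by identity genes were run on genes only.

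The sign turned for Flt1 (-0.016) and Slc2a1 (-0.19) without control 1, for Mfsd2a (0.072) without control 2, for Slco1a4 (-0.034) without surgery 1, for Slc2a1 (-0.016) without surgery 2, for Slco1a4 (-0.013) and Mfsd2a (0.071) with the GC offset, and for Slc2a1 (-0.010) when scaled by the identity genes. That scaling mostly followed Spock2 (796 and 909 CPM in surgery and 892 and 890 CPM in control, of sums of 1460 and 1587 CPM in surgery and 1482 and 1515 CPM in control), and so says little about endothelial content. With a replicate block and the GC offset Slco1a4 was at -0.015 and Mfsd2a at 0.071. With 1 library left out, Slco1a4 lay between -0.034 and 0.35, Slc2a1 between -0.19 and 0.25, Mfsd2a between -0.089 and 0.072 and Flt1 between -0.016 and 0.24. The cause was not tested. The labels name no animal or batch that a replicate number stands for, and the deviations of same-numbered libraries had a correlation of 0.15. With the replicate block the median of the 10 genes was 0.13 and 0 passed, while over all genes 39 were called, against 0 without the block. Over all genes DESeq2 called 78, no count filter 395, the count minimum in each library 1, the block with the GC offset 35, scaling by identity genes 7, and leaving out 1 library 51 to 734. With 2 libraries per group, differences of the size seen for most of these genes were not resolved.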
